A study of Mus musculus with 4 samples.

Results

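Non-classical monocytes were identified among CD45+ leukocytes of a mouse glioma by 3 of their transcripts. A barcode counted as a member when it carried at least 3 unique molecular identifiers (UMIs, each marking 1 captured mRNA molecule) of Ace, Ear2 and Treml4 together, fewer than 30 UMIs of C1qa, C1qb and C1qc, and none of Cd3e, Cd79a and Ncr1, in a barcode with at least 500 detected genes and under 10% mitochondrial UMIs. The rule found 388 of 13960 barcodes, 149 of 6689 from WT mice and 239 of 7271 from CaMKK2 KO mice. Of these, 361 were assigned to a single mouse by hashtag (140 WT and 221 CaMKK2 KO), 26 carried more than 1 hashtag and 1 carried none. All values by mouse rest on the 361 assigned cells.

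The leukocytes were sorted as live CD45+ cells from the tumor-bearing hemispheres of C57Bl/6 background mice on day 14 after implantation of CT2a, a syngeneic glioma line. There were 4 WT mice and 4 CaMKK2 KO mice, age- and sex-matched females of 8 to 12 weeks. The knockout was of the whole animal (CaMKK2-/-), so that host cells of all types carried it and the implanted tumor cells did not. The 4 mice of a genotype were tagged with hashtag antibodies, pooled and run on 1 droplet channel with 3' chemistry, so that the genotype and the channel cannot be told apart in any comparison below. The mouse, not the cell, was the replicate.

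Non-classical monocytes are the patrolling blood monocytes of the mouse. They arise from Ly6C-high classical monocytes by a conversion that needs the nuclear receptor NR4A1, crawl along the vessel wall through the integrin LFA-1, and remove debris from the endothelium. Classical monocytes, by contrast, enter inflamed tissue through CCR2 and give rise to macrophages. CAMKK2 is a calcium and calmodulin dependent kinase that phosphorylates CAMKI, CAMKIV and AMPK.

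The members were a small population in each mouse. WT mice 1 to 4 gave 13, 47, 46 and 34 cells, and CaMKK2 KO mice 1 to 4 gave 29, 112, 24 and 56 cells. Their UMIs summed to between 118884 in WT mouse 1 and 1219614 in CaMKK2 KO mouse 2, so that 1 UMI was worth 8.41 CPM (UMI counts per 1e+06 UMIs of the same cells and mouse) in the former and 0.820 CPM in the latter. The median member held 9802 UMIs and 2719 genes. The libraries shared 42 cell barcodes, and 0 of the members carried 1 of them.

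The label was set beside markers that the rule did not use. They were chosen with earlier results of these data known, so they are not an independent check. Adgre4, an adhesion receptor of the EGF-TM7 family, stood at 211 ± 60.7 CPM (SD, n = 8 mice) in the members and at 14.7 ± 4.94 CPM in classical monocytes of the same mice. Ceacam1, a carcinoembryonic antigen family receptor, stood at 118 ± 42.3 CPM against 14.5 ± 4.46 CPM. Eno3, the muscle-type enolase, stood at 100 ± 73.4 CPM against 1.73 ± 1.76 CPM. For each of the 3 genes the lowest mouse of the members lay above the highest mouse of the classical monocytes. Other genes listed for non-classical monocytes differed less. Cx3cr1 was at 308 ± 81.2 against 228 ± 95.6 CPM and Fcgr4 at 494 ± 148 against 385 ± 95.1 CPM. The genes of the rule itself stood at 267 CPM for Ace, 416 CPM for Ear2 and 220 CPM for Treml4, which only restates how the cells were chosen. Classical monocytes were taken as barcodes passing the same limits with at least 3 UMIs of Ly6c2, at least 3 UMIs of Vcan, Chil3 and F13a1 together, fewer than 3 UMIs of Ace, Ear2 and Treml4 and fewer than 3 UMIs of Siglech, Cxcr2 and Retnlg; there were 1519 of them.

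**Figure D1:**
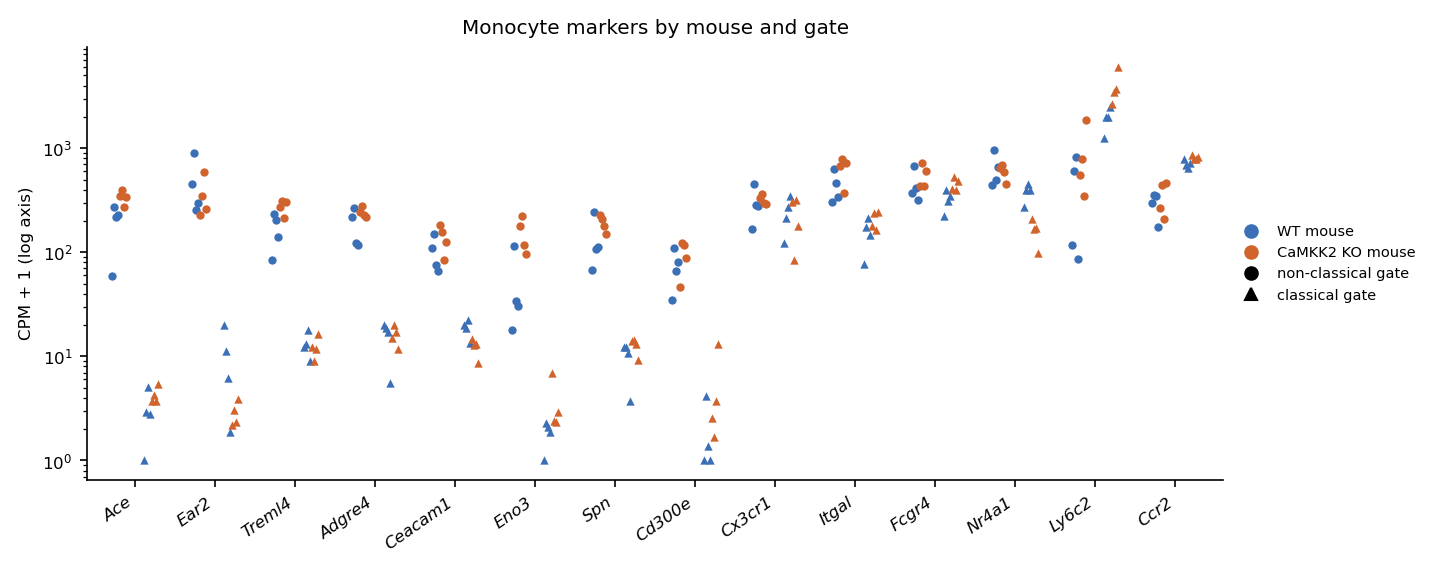
Levels as CPM plus 1 (log axis) of the rule genes and other markers, with 1 circle per mouse for non-classical and 1 triangle per mouse for classical monocytes, WT in blue and CaMKK2 KO in orange. Adgre4, Ceacam1 and Eno3 lie higher in the non-classical cells of each mouse. Ly6c2 lies at 649 ± 571 CPM in them against 2961 ± 1492 CPM in classical monocytes, which were chosen by it.

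The members were graded and not uniform. All 3 rule genes were detected in 164 of the 361 cells, 2 of them in 116 cells and 1 in 81 cells. In the 150 cells with at least 10 UMIs of the rule genes, Adgre4 reached 413 CPM and Ly6c2, the classical monocyte antigen, was at 372 CPM. In the 109 cells with 3 or 4 such UMIs, Adgre4 was at 56.6 CPM and Ly6c2 at 1320 CPM. Cd300e, an activating receptor of non-classical monocytes, followed the same order, with 206 CPM, 53.0 CPM in the 102 cells with 5 to 9 UMIs, and 8.50 CPM. H2-Aa, an MHC class II chain, ran the other way, with 3614, 5195 and 6337 CPM. Just inside the threshold, the 77 cells with exactly 3 rule UMIs held 41.3 CPM of Adgre4, 47.0 CPM of Ceacam1 and 1333 CPM of Ly6c2. Just outside it, the 138 cells with exactly 2 held 24.6, 10.6 and 1332 CPM. At the C1q limit, 5 members had 10 to 29 UMIs and 184 CPM of Adgre4, and 4 barcodes with 30 to 49 UMIs had 158 CPM.

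A small group of members carried dendritic cell transcripts. Of the 361 cells, 22 held at least 2 UMIs of Flt3, Xcr1, Clec9a and Cd209a, which are receptors of conventional dendritic cells; this group was defined after the values had been seen. These 22 cells had 7.23 CPM of Adgre4 against 254 CPM in the other 339, 0 Cd300e against 108 CPM, and 10183 CPM of H2-Aa against 4194 CPM. Their median UMI count was 25556 against 9420. They comprised 14 WT and 8 CaMKK2 KO cells and held 44.1%, 7.06%, 19.8% and 18.9% of the members' UMIs in WT mice 1 to 4 and 14.3%, 5.36%, 39.6% and 8.49% in CaMKK2 KO mice 1 to 4. WT mouse 1 and CaMKK2 KO mouse 3 thus stood apart from the other mice, and the genotype comparisons below were also run without these cells.

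Markers of further cell types differed widely in level. Of the genes listed for mast cells and basophils, 5 of 5 were at 0 UMIs, and of those for B cells 5 of 8 were, among them Pax5 and Ms4a1; the rule itself set Cd79a, Cd3e and Ncr1 to 0. The 8 B cell genes, led by Ighm, summed to 53.7 ± 24.3 and 65.8 ± 16.4 CPM in members of the 2 genotypes, WT first, against 28.1 ± 9.25 CPM in classical monocytes. Of 9 neutrophil genes Retnlg and Ly6g were at 0, and the list summed to 415 ± 291 and 467 ± 325 CPM, led by Il1rn, against 1075 ± 975 CPM in classical monocytes. S100a8 was at 303 and 441 CPM in WT mice 1 and 2 and at most 23 CPM in the other mice. The 8 T cell genes summed to 15.3 ± 4.85 CPM in WT members against 31.4 ± 4.87 CPM in CaMKK2 KO members, with Cd3d the most abundant, and the 8 NK cell genes to 89.4 ± 48.8 and 104 ± 20.5 CPM. The 8 type 1 dendritic cell genes, led by Irf8, which monocytes also express, summed to 649 ± 116 and 804 ± 160 CPM, and the 8 type 2 dendritic cell genes to 788 ± 68.5 and 735 ± 509 CPM, with CaMKK2 KO mouse 3 the highest at 1485 CPM. In classical monocytes these lists summed to 445 ± 83.9 and 275 ± 38.0 CPM. Of the type 1 genes 4 of 5 measured were higher than in classical monocytes in 8 of 8 mice (Itgae, Batf3, Wdfy4 and Cd24a), and of the type 2 genes 2 of 7, where 8.83% of all genes measured were. The 15 macrophage genes, among them the C1q genes that the rule limited, summed to 7182 ± 1774 CPM in WT and to 1684 ± 124 CPM in CaMKK2 KO members. Apoe was the most abundant of them, at 5455 ± 1675 and 388 ± 266 CPM, and held most of that difference. In the genotype test below, 1 of the 9 list genes tested, Apoe, was called lower and 0 higher, where 0.247% of all tested genes were called lower.

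The share of non-classical monocytes among all assigned cells did not separate the genotypes. It was 1.17%, 3.24%, 3.13% and 2.21% in WT mice 1 to 4 and 2.06%, 6.23%, 1.42% and 4.52% in CaMKK2 KO mice 1 to 4, and the groups overlapped. The means were 2.44% ± 0.963 and 3.56% ± 2.23 (SD, n = 4 mice each), a difference of 1.12 percentage points with p = 0.4 (two-sided exact permutation test, adjusted p = 0.4 over 3 shares). Because 4 mice were set against 4, the smallest p this test allows is 0.0286. Of the monocytes of both kinds, the non-classical share was 37.1%, 28.0%, 16.7% and 26.6% in WT and 12.6%, 23.8%, 14.7% and 16.3% in CaMKK2 KO mice. That share averaged 27.1% ± 8.36 against 16.8% ± 4.86, lower by 10.3 percentage points on average with overlapping groups, and did not pass the test (exact permutation p = 0.0571, adjusted p = 0.171). Classical monocytes made up 8.0% ± 5.70 of WT cells against 16.4% ± 6.60 of CaMKK2 KO cells (exact permutation p = 0.143, adjusted p = 0.214). These shares are shares of recovered, sorted cells and not cell numbers per tumor.

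**Figure D2:**
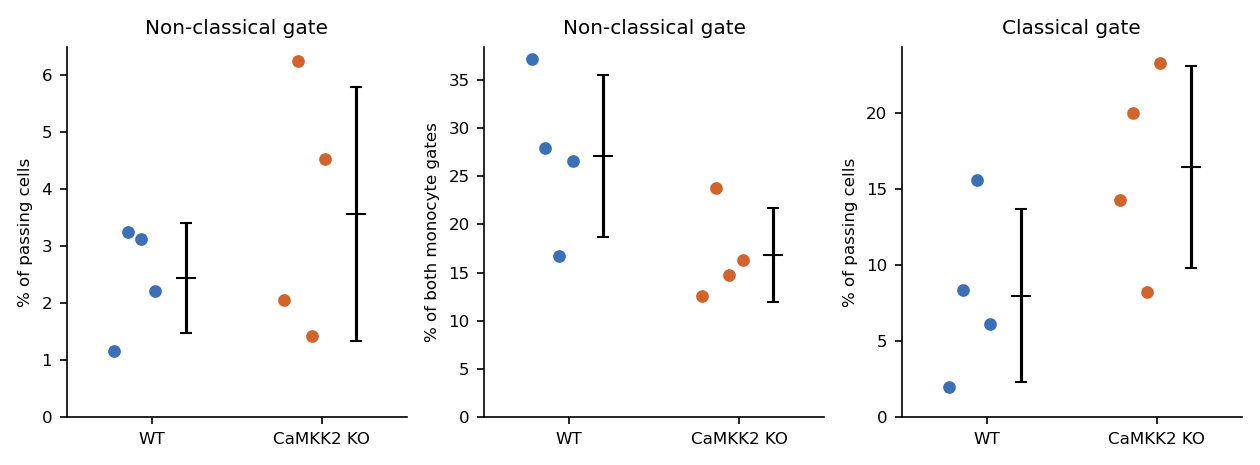
Share of cells in percent for each mouse, as non-classical monocytes among all cells, non-classical monocytes among monocytes, and classical monocytes among all cells, with 1 point per mouse and bars for the mean and SD of each genotype. WT and CaMKK2 KO points overlap in each panel, and the lowest exact permutation p of the 3 is 0.0571.

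Relative to classical monocytes of the same mouse, the members had more transcript of 15 of 22 non-classical monocyte genes and less of 9 of 12 measured macrophage genes, 9 of 15 glycolysis and hypoxia genes and 9 of 25 chemokine and cytokine genes, each in 8 of 8 mice. The rule that chose the cells is this same contrast, so the values are a description with no test. Of 8043 genes measured, 710 (8.83%) were higher in the non-classical cells of 8 of 8 mice and 524 (6.51%) were lower in 8 of 8, while 34 (0.423%) were at least 2-fold higher and 21 (0.261%) at least 2-fold lower in all 8 mice. These counts include genes that defined the gates. Without those genes, 707 of 8033 were higher and 519 lower in 8 of 8 mice, 31 and 19 of them by at least 2-fold. Ratios are log2 ratios within a mouse after adding 10 CPM to each level, which understates the change of low genes, and are given as the median over 8 mice.

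Among non-classical monocyte genes, 15 of 22 were higher in 8 of 8 mice and 1, Tgm2, was lower. Spn, the sialoglycoprotein CD43, had a ratio of 3.16 (range 1.86 to 3.57), with 161 ± 63.1 CPM in the members and 10.2 ± 3.47 CPM in classical monocytes. Cd36, a scavenger receptor for lipids, had the highest ratio, 3.40 (1.73 to 4.42). Pglyrp1, a peptidoglycan recognition protein, was at 2.86, and Fabp4, a fatty acid carrier, at 2.39. Cx3cr1, the fractalkine receptor, was higher in 6 of 8 mice at 0.29, and Fcgr4, the CD16-2 Fc receptor, in 7 of 8 at 0.37, so that neither was higher in all 8 mice.

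Adhesion and trafficking genes were divided, 6 of 20 being higher and 5 lower in all mice. Itgal, the alpha chain of LFA-1, was at 535 ± 188 CPM against 178 ± 54.1 CPM (ratio 1.61). S1pr5, a sphingosine-1-phosphate receptor, had a ratio of 2.33. Itgae, the alpha E integrin better known on dendritic cells and lymphocytes and listed with the former, had 3.08. It was detected in 7.76% of the members (6.16% after thinning to 3000 UMIs) and in 0.757% of classical monocytes (0.0694% after thinning), whose median UMI counts were 9802 and 11656. Its level stood highest in WT mouse 1 at 177 CPM, CaMKK2 KO mouse 3 at 168 CPM and WT mouse 4 at 166 CPM, of which the first pair had the largest shares of UMIs in cells with dendritic cell UMIs. The part of those cells in its level was not tested. Ccr2, the receptor for CCL2, was at 318 ± 102 against 763 ± 73.0 CPM (ratio -1.16).

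Survival and apoptosis genes were divided, 4 of 15 being higher and 3 lower in all mice, with a median ratio of -0.04. Bcl2, which blocks the mitochondrial death pathway, had a ratio of 1.84 (1.16 to 3.19), and Pmaip1, which encodes the opposing protein NOXA, 1.37 (1.17 to 2.44). Bcl2a1d and Bbc3 were the other higher genes, at 1.16 and 0.78. The lower genes were Bcl2l1, at -1.02, Casp8, at -0.43, and Mcl1, at -0.23. Of the transcription factors listed, 9 of 22 were higher and 2 lower in 8 of 8 mice. Nr4a1 was at 617 ± 169 against 270 ± 131 CPM (ratio 1.42, range 0.13 to 2.09). Pou2f2, a POU-domain factor, had a ratio of 1.68, and Klf2, a factor of quiescence and of endothelial flow sensing, 1.53. Cebpa, the myeloid factor, was lower at -0.67. Cebpb, which is needed for these cells to survive, was not distinguished, at 2208 ± 434 against 2288 ± 297 CPM.

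Genes of tissue macrophages were among the lowest. C3ar1, the C3a receptor, stood at 27.1 ± 18.2 CPM against 238 ± 58.5 CPM (ratio -3.01, range -4.00 to -1.83), and Gpnmb, a lysosomal glycoprotein, had a ratio of -2.82. The macrophage list had 0 of 12 measured genes higher and 9 lower in 8 of 8 mice. Of the 25 chemokine and cytokine genes 9 were lower and 1 higher, and Ccl2, which recruits CCR2-bearing monocytes, was at 99.8 ± 65.4 against 651 ± 261 CPM (ratio -2.63). The glycolysis and hypoxia list had 0 of 15 genes higher and 9 lower, with Vegfa, the angiogenic growth factor, at -2.55. Of the type I interferon genes 14 of 33 were lower and 0 higher, with Ifitm3 at 4005 against 5515 CPM. Of the 10 MHC class II genes 3 were higher, namely H2-DMb2 at 3.01, H2-Oa at 2.44 and H2-Ob, and none was lower; these encode chains of the peptide-exchange molecules DM and DO, and the 22 cells with dendritic cell UMIs were among the members measured here. Leaving those cells out gave ratios of 1.35 for H2-DMb2 and 1.09 for H2-Oa, and 47 genes past the 2-fold limit in all mice in place of 55.

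**Figure D3:**
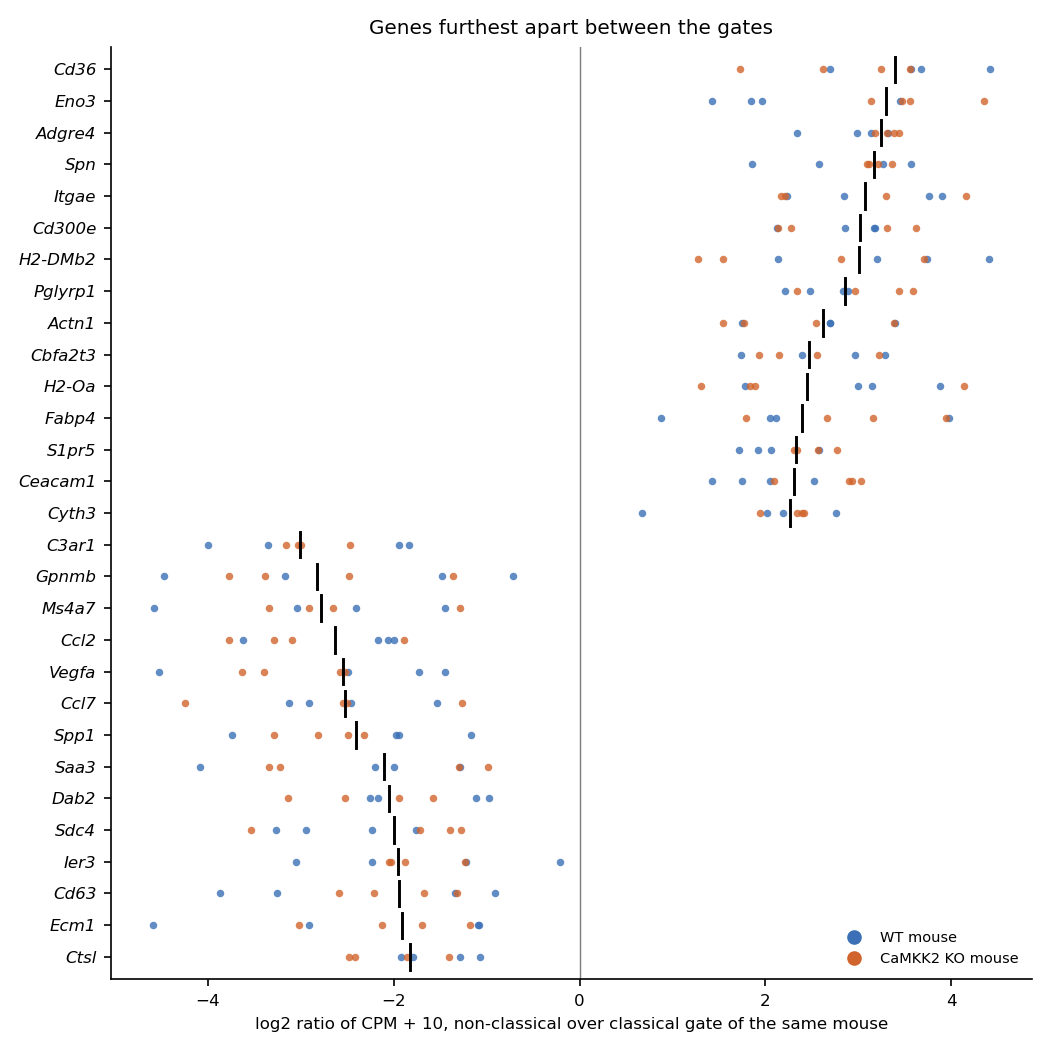
Median log2 ratio of CPM between non-classical and classical monocytes of the same mouse for genes named by the rule on highest and lowest ratios, with a point for each of the 8 mice and a bar at the median. The ratios run from 3.40 for Cd36 to -3.01 for C3ar1, and the points of each gene lie on 1 side of 0.

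The targeted transcript was examined first in the genotype comparison. Over all assigned cells Camkk2 stood at 27.3, 28.3, 35.8 and 27.5 CPM in WT mice 1 to 4 and at 14.0, 17, 13.1 and 22.4 CPM in CaMKK2 KO mice 1 to 4. The groups did not overlap, and the difference of -13.1 CPM gave p = 0.0286 (two-sided exact permutation test), the smallest this design allows. In the non-classical members it was 50.5, 106, 82.6 and 63.4 CPM in WT and 67.2, 55.8, 28.0 and 52.1 CPM in CaMKK2 KO mice, from 6 to 68 UMIs a mouse. These groups overlapped (exact permutation p = 0.2), whereas in classical monocytes they did not, at 67.4 ± 13.5 against 28.3 ± 3.92 CPM (exact permutation p = 0.0286). A 3' tag lying outside a deleted part remains countable, so the residual UMIs do not check the allele.

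Within the non-classical members, edgeR's quasi-likelihood test with Benjamini-Hochberg adjustment called 24 of 4868 genes at an adjusted p under 0.05, which is 0.493% of those tested, 12 higher (0.247%) and 12 lower (0.247%) in CaMKK2 KO. At an unadjusted p under 0.05 there were 444 genes (9.12%). The count of calls was 31 without the cells bearing dendritic cell UMIs, 24 when WT mouse 1 was left out and 47 when CaMKK2 KO mouse 3 was. The same test in classical monocytes, whose sums are deeper, called 117 of 8011 genes (1.46%). In each of the 24 genes the 4 WT and 4 CaMKK2 KO mice did not overlap, which held for 242 genes (4.97%) of all tested. The adjusted p of each gene below comes from this test.

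Among the lower genes were Apoe, Spp1 and Hpgd. Apoe, the lipid carrier apolipoprotein E, was at 7217, 6551, 3914 and 4138 CPM in WT mice 1 to 4 and at 211, 279, 784 and 276 CPM in CaMKK2 KO mice 1 to 4. Each WT mouse exceeded each CaMKK2 KO mouse, and the log2 fold change was -3.83 (SE 0.40, adjusted p = 0.000291). Apoe was also lower in the T cell gate of the same mice, which should not express it, at 859 against 98.8 CPM, and in tumor-associated macrophages, with at least 30 C1q UMIs, at 28450 against 2260 CPM. How much of the members' Apoe was free RNA was not tested. Spp1, the secreted matrix protein osteopontin, was at 33.6, 72.4, 50.9 and 107 CPM in WT and 18.3, 6.56, 10.5 and 9.46 CPM in CaMKK2 KO members. Its log2 fold change was -2.81 (SE 0.40, adjusted p = 0.00421). In the T cell gate Spp1 was at 52.7 and 55.7 CPM, about the level of the WT members. Hpgd, which degrades prostaglandins, averaged 102 ± 38.8 against 2.15 ± 2.15 CPM (log2 fold change -5.49, adjusted p = 0.000157).

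The stress-inducible HSP70 genes Hspa1a and Hspa1b were lower together. Hspa1a was at 303, 550, 276 and 619 CPM in WT and 162, 131, 116 and 126 CPM in CaMKK2 KO members, a log2 fold change of -1.73 (SE 0.27, adjusted p = 0.00830). Its call was lost in 2 of 18 alternatives, with adjusted p up to 0.0611. Hspa1b was at 404, 308, 111 and 295 CPM against 18.3, 46.7, 66.5 and 33.1 CPM, a log2 fold change of -2.70 (SE 0.40, adjusted p = 0.00616). The HSP70 genes are near copies, so that reads may be split between them and the value of each alone is uncertain. Their promoters are shown because these neighboring genes fell together. The sequences are RefSeq's on GRCm38.p6, minus strand, from 250 bases before to 50 after the start, at chr17:34972107-34972406 for Hspa1a and chr17:34959189-34959488 for Hspa1b, with capitals at the bases that differ.
Hspa1a: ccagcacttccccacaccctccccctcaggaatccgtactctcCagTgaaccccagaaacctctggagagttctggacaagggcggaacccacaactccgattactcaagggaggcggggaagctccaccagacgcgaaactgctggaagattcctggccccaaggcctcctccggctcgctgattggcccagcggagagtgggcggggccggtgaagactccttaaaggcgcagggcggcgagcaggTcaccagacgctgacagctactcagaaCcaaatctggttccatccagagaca
Hspa1b: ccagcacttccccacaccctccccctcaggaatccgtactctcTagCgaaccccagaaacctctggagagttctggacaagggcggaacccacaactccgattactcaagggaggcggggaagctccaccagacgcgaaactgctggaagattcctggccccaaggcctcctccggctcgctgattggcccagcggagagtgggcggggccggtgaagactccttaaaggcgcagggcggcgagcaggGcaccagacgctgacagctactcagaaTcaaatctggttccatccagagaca
The stretches differed at 4 of 300 bases (98.7% identical). Neither held an exact match to 1 strict form of the heat shock element on either strand in this window. That form was alternating units of GAA, TTC and GAA with NN between them, found in 198 of 32851 promoters of this length (0.603%). Elements with mismatched units were not searched for, so their absence is not shown.

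Of the type I interferon genes listed 1 of 33 rose, Ifi44, and 0 fell, where 0.247% of all tested genes rose and 0.247% fell. At an unadjusted p under 0.05, 3 of the list were higher and 0 lower, and DESeq2 called 1 higher. The median log2 fold change of the list was 0.27. Ifi44, a cytoplasmic interferon-induced protein, was at 33.6, 13.6, 22.8 and 17.1 CPM in WT and 342, 291, 179 and 527 CPM in CaMKK2 KO members (log2 fold change 4.08, SE 0.38, adjusted p = 0.000157). Its neighbor Ifi44l had 0 UMIs in the WT members and 183, 150, 70.0 and 319 CPM in CaMKK2 KO mice, at least 96.8-fold higher against a floor of 3 UMIs over the group. Ifi202b, of the HIN-200 family of DNA sensors, likewise had 0 UMIs in WT and 327, 354, 154 and 445 CPM in CaMKK2 KO mice, at least 180-fold higher. Ifi213, of the same family and its neighbor on chromosome 1, was at 50.5, 97.3, 134 and 90.2 CPM in WT and at 0 in CaMKK2 KO members, at least 86.5-fold lower. Ifi44l, Ifi202b and Ifi213 are outside that list.

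Emp1, an epithelial membrane protein, was at 50.5, 47.5, 14.1 and 17.1 CPM in WT and 202, 137, 245 and 125 CPM in CaMKK2 KO members (log2 fold change 2.59, SE 0.39, adjusted p = 0.00616). Tmem176a, a membrane protein of myeloid and dendritic cells, was at 25.2, 31.7, 14.1 and 26.8 CPM against 104, 72.2, 133 and 59.9 CPM (log2 fold change 1.88, SE 0.34, adjusted p = 0.0280). Its call was lost in 8 of the 18 alternatives. Hebp1, a heme-binding protein, rose from 2.49 ± 2.16 to 99.2 ± 28.2 CPM, and Agtrap, a partner of the angiotensin receptor, from 14.0 ± 7.38 to 55.7 ± 9.78 CPM. The call of Agtrap was lost in 3 of 16 alternatives, with adjusted p up to 0.0647. Spint1, an inhibitor of serine proteases, fell from 152 ± 8.88 to 2.57 ± 3.33 CPM, and Eps8, an actin regulator, from 104 ± 26.7 to 5.81 ± 8.25 CPM. Chp1, a calcium-binding partner of sodium-proton exchangers, and Oser1, an oxidative stress response gene, were named after their values were seen and rose by 1.07 and 1.64 on the log2 scale. The call of Chp1 was lost in 9 of 18 alternatives.

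Further called genes were Eif3j1, a subunit of translation initiation factor 3, at -2.85, its copy Eif3j2 at 5.16, and AA467197, 1600014C10Rik, Gm8797 and Gm47283 at -2.19, 1.77, 4.63 and -3.12. The call of 1600014C10Rik was lost in 7 and that of AA467197 in 6 of 18 alternatives, with adjusted p up to 0.208 and 0.324. Reads may be split between Eif3j1 and Eif3j2. Gm47283 is annotated on chromosome Y, and the cells of all 8 mice held Xist, looked up after the values were seen, at 571 to 962 CPM.

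**Figure D4:**
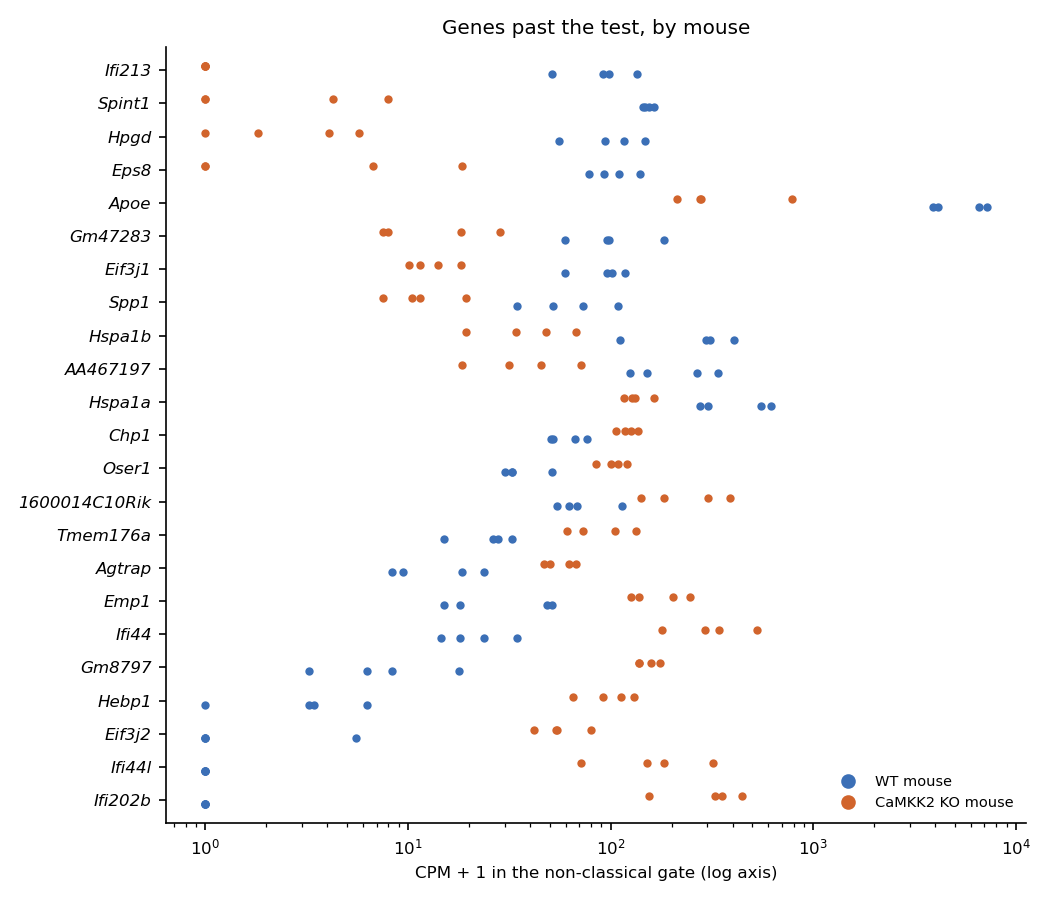
Levels as CPM plus 1 (log axis) of the genes called between genotypes in non-classical monocytes, other than 1 that is not shown, with 1 point per mouse, WT in blue and CaMKK2 KO in orange. The points of the genotypes do not overlap for any gene, and Ifi44l and Ifi202b are at 0 in WT while Ifi213 is at 0 in CaMKK2 KO.

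Of the 24 genes, 13 lay near another called gene, in 5 groups in which each gene was within 3 Mb of the next. How often genes drawn from all those tested lie this near each other was not computed, so the count is a description only. Camkk2 is on chromosome 5, as is Spp1, 18.3 Mb from it and outside these groups. On chromosome 2 Spint1, Chp1, Eif3j1 and AA467197 lay within 3.40 Mb, among 19 tested genes. On chromosome 6 Hebp1, Emp1 and Eps8 lay within 2.52 Mb, among 9 tested genes. On chromosome 1 Ifi213 and Ifi202b lay within 0.416 Mb, among 8 tested genes, and on chromosome 3 Ifi44 and Ifi44l were adjacent, as were the HSP70 genes on chromosome 17. The knockout allele and any sequence that the line carries with it cannot be told apart here.

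The same mice supplied the other cell gates, so their values are set beside the members' without an overlap test. Of the 24 called genes, 21 changed at least 2-fold in the same direction in classical monocytes, so most were not particular to the members. Chp1, Tmem176a and Hspa1a did not. Pooled over mice, classical monocyte CPM (WT first) went from 34.8 to 0.781 for Hpgd and from 245 to 0.174 for Spint1. It went from 119 to 5.30 for Eps8 and from 10.6 to 189 for Hebp1. Ifi44 had log2 fold changes of 4.08 in the members, 5.32 in classical monocytes, 4.20 in macrophages and 3.01 in T cells. Emp1 had 2.59, 1.78, 0.93 and 2.63 in that order. Emp1 in macrophages did not pass the test (adjusted p = 0.164). Hspa1b had -2.70 in the members (adjusted p = 0.00616) and -1.31 in classical monocytes (adjusted p = 0.189), and Hspa1a -1.73 and -0.85 (adjusted p = 0.311 in classical monocytes). Neither HSP70 gene passed the test of a difference between the gates.

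Pathway lists showed few calls. Of the 3 markers outside the rule 0 rose and 0 fell, with 1 and 0 at an unadjusted p under 0.05 and 0 by DESeq2. The log2 fold change of Eno3 was 1.55 (adjusted p = 0.249). Over 18 alternatives it ran from 1.26 to 2.39, with adjusted p from 0.00128 to 0.722. The 22 non-classical monocyte genes gave 0 calls (2 higher and 1 lower unadjusted, 0 by DESeq2) with a median log2 fold change of 0.29, against -0.01 over 4862 genes. Among all tested genes 4.46% were higher and 4.66% lower at an unadjusted p under 0.05. The 17 classical monocyte genes gave 0 calls, with 5 lower and 1 higher unadjusted and 3 lower by DESeq2. Chil3, a chitinase-like protein, averaged 5335 ± 2979 CPM in WT members against 1816 ± 541 CPM in CaMKK2 KO (log2 fold change -1.55, adjusted p = 0.101), and Fn1, fibronectin, named after its values were seen, -2.16 (adjusted p = 0.091). The log2 fold change of Chil3 ran from -2.05 to -1.18 over 18 alternatives, with adjusted p from 4.2e-06 to 0.348. Lyz2, lysozyme, was at 0.38 and Plac8 at 0.52.

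Antigen presentation and interferon-gamma lists had medians above 0 without a gene that passed the test above, though some did in alternatives. The 19 tested interferon-gamma response genes gave 0 calls (5 higher unadjusted, 0 lower, 0 by DESeq2) with a median of 0.85. Cxcl9, an interferon-gamma-induced T cell chemokine, was at 0, 419, 1087 and 161 CPM in WT and 1415, 2299, 24.5 and 3584 CPM in CaMKK2 KO members, with overlapping groups (log2 fold change 2.06, adjusted p = 0.581). The 20 MHC class I and loading genes gave 0 calls (7 higher unadjusted, 0 lower, 0 by DESeq2) with a median of 0.44, B2m at 0.58 (adjusted p = 0.249) and H2-D1 at 0.57 (adjusted p = 0.249). The 10 MHC class II genes gave 0 calls (2 higher unadjusted, 0 by DESeq2) with a median of 0.42, and Cd74, the invariant chain, was at 0.69 (adjusted p = 0.407). Without cells bearing dendritic cell UMIs Cd74 was at 0.89 (adjusted p = 0.375) and H2-Aa at 0.70 in place of 0.44 (adjusted p = 0.538), and with at least 5 rule UMIs they were at 1.29 (adjusted p = 0.764) and 0.97 (adjusted p = 0.841). With no filter on low counts Cd74 passed the test (0.69, adjusted p = 0.0363). Over 18 alternatives H2-D1, H2-K1 and Cxcl9 had a lowest adjusted p of 0.0156, 0.0335 and 0.0178. Their highest were 0.630, 0.784 and 0.998. B2m, H2-Aa and H2-Ab1 passed in none, with a lowest adjusted p of 0.0620, 0.538 and 0.515. The study's disease-associated microglia list, which may have been chosen on these samples and is then not independent evidence, had 2 of 9 genes lower, Apoe and Spp1, and 0 higher, with a median of 0.03. The immediate early and heat shock list had 2 of 17 lower, the HSP70 genes, and 0 higher, with a median of -0.27. Of all tested genes 0.247% were called lower. At an unadjusted p under 0.05 the microglia list had 3 genes lower and the heat shock list 2, with 0 higher in each.

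The genotype difference was then compared between the gates within mice. The interaction of genotype and class, with the mouse as a block, was called for 4 of 8043 genes (0.0497%), and 450 (5.59%) had an unadjusted p under 0.05. For H2-Aa the members were at 6628, 2259, 3434 and 5708 CPM in WT and 6066, 5329, 7641 and 5312 CPM in CaMKK2 KO mice, and the groups overlapped. In classical monocytes H2-Aa was at 458, 947, 1194 and 1674 CPM in WT and 7280, 6010, 8725 and 4833 CPM in CaMKK2 KO mice, with no overlap. The log2 fold change in the members was smaller by 2.13 (interaction -2.13, SE 0.36, adjusted p = 0.0316). For H2-Eb1, a further class II chain, the interaction was -2.57 (SE 0.43, adjusted p = 0.0316).

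Class II transcripts also moved with the dendritic cell UMIs and with the threshold. WT mouse 1 and CaMKK2 KO mouse 3, where cells with dendritic cell UMIs held the most, had the highest H2-Aa of their genotypes among the members. Without those cells the interaction was -1.76 for H2-Aa and -2.14 for H2-Eb1 (adjusted p = 0.143 for both), and with at least 5 rule UMIs it was -1.08 (adjusted p = 0.870) and -1.61 (adjusted p = 0.262). Over 19 alternatives both calls were lost in 9: these 2, 200 or more UMIs, and leaving out WT mouse 3 or 4 or any 1 of the CaMKK2 KO mice, where the interaction ran from -2.09 to -2.32 for H2-Aa and from -2.49 to -2.84 for H2-Eb1, with adjusted p from 0.0561 to 0.178. Leaving out WT mouse 1 gave -1.64 and -2.0 (adjusted p = 1.71e-05 for both).

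Thbd, thrombomodulin, an anticoagulant receptor, differed in the other direction. It was at 8.41, 18.1, 31.6 and 14.6 CPM in WT and 27.5, 30.3, 28.0 and 59.9 CPM in CaMKK2 KO members, while in classical monocytes it was at 33.7 ± 11.2 and 8.10 ± 4.11 CPM. The interaction was 2.97 (SE 0.44, adjusted p = 0.0279), and stayed called without cells bearing dendritic cell UMIs at 2.93 (adjusted p = 0.00836) and with at least 5 rule UMIs at 2.88 (adjusted p = 0.0122). Tmem176a had an interaction of 2.07 (SE 0.33, adjusted p = 0.0316), with -0.03 as its log2 fold change in classical monocytes; without cells bearing dendritic cell UMIs it was 2.10 (adjusted p = 0.0586), and with at least 5 rule UMIs 1.64 (adjusted p = 0.430). Its call was lost in 7 of 19 alternatives, the others being those that left out WT mouse 2 (1.98, adjusted p = 0.108), WT mouse 3 (1.88, adjusted p = 0.128) or CaMKK2 KO mouse 1, 2 or 4. Nr4a1, the factor these cells depend on, missed the threshold at 1.2 (adjusted p = 0.0507). It was at 642 ± 233 and 592 ± 105 CPM in the members and at 379 ± 77.9 and 161 ± 45.2 CPM in classical monocytes, WT first. Without cells bearing dendritic cell UMIs the interaction of Nr4a1 was 1.30 (adjusted p = 0.00845), and with at least 5 rule UMIs it was 1.34 (adjusted p = 0.103). Over all its alternatives it ran from 0.97 to 1.42, with adjusted p from 6.4e-07 to 0.389. Leaving out CaMKK2 KO mouse 1, 2 or 4 left 0 interaction calls. The interaction of Thbd was then 2.87, 3.07 and 2.68 (adjusted p = 0.0575, 0.102 and 0.0927), that of H2-Eb1 -2.49, -2.57 and -2.66, and that of H2-Aa -2.09, -2.12 and -2.22, in that order of mice.

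**Figure D5:**
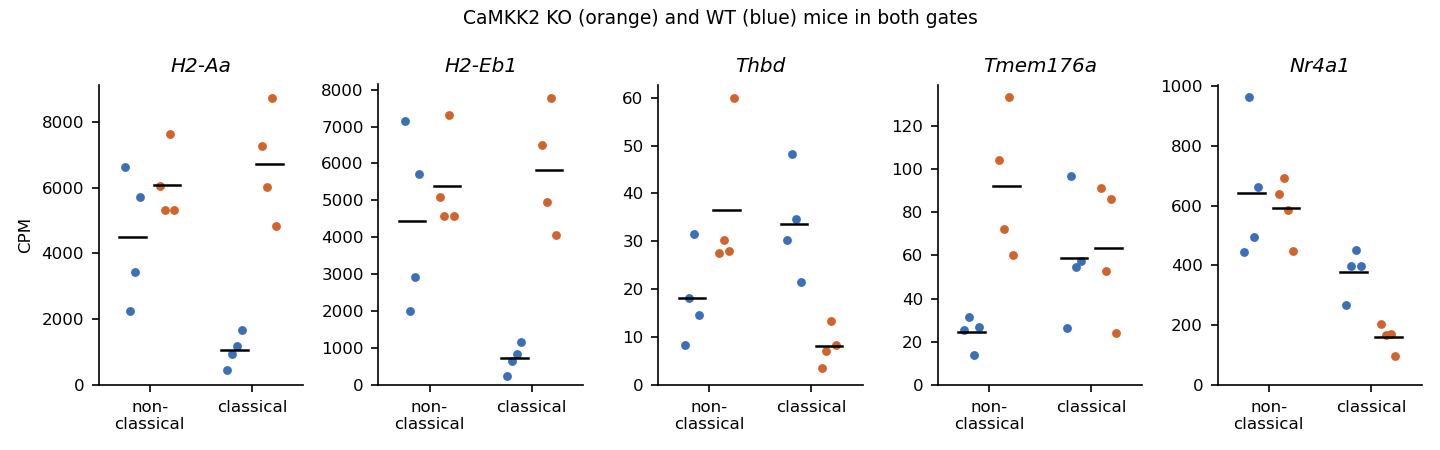
Levels in CPM of the 5 genes with the lowest interaction p in non-classical and classical monocytes, 1 point per mouse (WT in blue, CaMKK2 KO in orange) with lines at the means. H2-Aa averages 4507 and 6087 CPM in WT and CaMKK2 KO non-classical cells against 1068 and 6712 CPM in classical cells, and Thbd lies higher in CaMKK2 KO than WT on average in the former and lower in the latter.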

How the data were processed

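Single-cell RNA was measured in live CD45+ cells of 4 WT and 4 CaMKK2 KO mice. The deposited values were raw UMI counts per gene and barcode, which the authors made with bcl2fastq 2.20, Cell Ranger 4.0.0 and STAR 2.7.5c on mm10, per the submitters' processing notes; hashtag counts stood in the same deposited matrices. Mice were assigned by Seurat 5.3.0 HTODemux at the 0.99 quantile, and cells with more than 1 hashtag were left out; 11705 of 12866 passing barcodes were assigned. Scrublet scores served as an alternative only. Counts were summed per mouse and gate and tested with edgeR 4.0.16 in R 4.3.3 (total UMIs of the gate as library size, genes with 100 or more UMIs, Benjamini-Hochberg over all genes tested), with DESeq2 1.42.0 as an alternative. The study itself compared single cells and removed outlying cells by other limits. Shares and Camkk2 were compared by two-sided exact permutation tests. Tables were made in Python 3.11.15 with pandas 2.3.3. The tests were tried on simulated counts.

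Named genes were the 10 highest and 10 lowest among those called with no overlap of mice, the 15 highest and 15 lowest ratios, the 5 lowest interaction p-values and list members, up to 4 that passed the test or otherwise up to 3 with the most UMIs. Exceptions are marked where they occur. Genes that defined a gate stayed in the fits and the adjustment, but no test of them was read in that gate. The members and lists were chosen with earlier results of these data known. Totals of assigned cells ran from 13347367 to 24685526 UMIs a mouse, and counting error alone is largest in WT mouse 1. A few genes that the rule would name are not reported here.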

Additional observations from a re-analysis of the deposited data

Results flagged for a closer look

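Within a genotype, 96 groups of 4 mice were examined for a sample far from the others, and 5 had one, while chance gives about 1 in 20 groups. Camkk2 over all cells was at 35.8 CPM in WT mouse 3, above the other WT mice. In non-classical monocytes Oser1 was at 50.5 CPM in WT mouse 1, Apoe at 784 CPM in CaMKK2 KO mouse 3, Eif3j2 at 4.53 CPM in WT mouse 2, where the other WT mice were at 0, and Gngt2, a G protein subunit, at 844 CPM in WT mouse 2.

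The genotype difference differed between non-classical and classical monocytes by the interaction term of edgeR for 4 genes. The differences of log2 fold changes, non-classical minus classical, were 2.97 for Thbd, 2.07 for Tmem176a, -2.13 for H2-Aa and -2.57 for H2-Eb1. The class II values moved with the cells bearing dendritic cell UMIs, whose part in them was not tested beyond leaving those cells out.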

How the results depend on the processing

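With 4 mice a genotype, 1 channel per genotype and 13 cells in the smallest sum, a gene that missed the threshold is not shown to be unchanged. The 24 genes called in non-classical monocytes became 44 with DESeq2, 142 with no filter on low counts and 18 to 47 on leaving out each mouse, the highest without CaMKK2 KO mouse 3 (47). Calls were lost in some alternatives for Chp1, Tmem176a, 1600014C10Rik, AA467197, Agtrap and Hspa1a, and for the other 18 in none of those that tested the gene, which were 14 of 18 for Spp1 and 15 to 18 for the rest. The 117 genes called in classical monocytes became 224 with DESeq2, 314 with no filter and 47 to 129 on leaving out each mouse (47 without WT mouse 2 or CaMKK2 KO mouse 2). The 4 interaction calls became 9 with DESeq2, 9 at 20 or more UMIs, 2 at 200 or more, 65 with no filter, 2 with a gate of 5 or more UMIs, 7 under 5 C1q UMIs, 8 without outlying cells, 7 without the highest doublet scores, 2 without cells bearing dendritic cell UMIs, an alternative chosen after seeing the data, and 0 to 7 on leaving out each mouse. The 55 genes at least 2-fold apart between the gates in all mice, genes of the gates included, became 90 with 1 CPM and 19 with 50 CPM added. The Camkk2 difference over all cells ran from -15.0 to -11.1 CPM on leaving out each mouse, with an exact permutation p of 0.0571 without WT mouse 3. The log2 fold change of Cebpb, 0.06, was -0.020 with a gate of 5 or more UMIs and -0.065 to 0.17 on leaving out each mouse. The shares kept their direction and missed the threshold in each alternative run, 39 in all. The difference in the non-classical share among cells, 1.12 percentage points, was 0.231 when CaMKK2 KO mouse 2 was left out, 1.83 when CaMKK2 KO mouse 3 was and 0.699 when WT mouse 1 was, and that among monocytes, -10.3, was -16.5 with at least 10 Ly6c2 UMIs and -13.7 to -6.91 on leaving out each mouse. No paired analysis was possible because the labels give the mice no numbers that tie a WT mouse to a CaMKK2 KO mouse. Causes of these shifts were not tested.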
